A study of Mus musculus with 4 samples.

Results

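The transcripts of the mitochondrial protein import machinery were examined in sorted mouse beta cells, the insulin-secreting cells of the pancreatic islet. The 40 genes, of 31017 gene names in the count tables, were chosen by name: every numbered Timm and Tomm gene, and 15 further genes (Timmdc1, Pam16, Dnajc15, Dnajc19, Grpel1, Grpel2, Hspa9, Samm50, Mtx1, Mtx2, Pmpca, Pmpcb, Immp1l, Immp2l and Chchd4). Timmdc1 is counted among them by name, though it is known for assembling respiratory complex I. The cells came from islets of wild type C57BL/6J males aged 10 weeks, cultured overnight before dissociation and sorted on CD63, a tetraspanin of late endosomes, lysosomes and secretory vesicles. Both the CD63 high and the CD63 low group held 2 libraries of amplified polyA RNA, and the labels name no treatment, no transgene and no gate other than CD63. Whether the replicates are separate animals, or separate sorts of the same cells, is not in the labels. All p-values therefore rest on the spread between these libraries, which may be technical.

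Most mitochondrial proteins are made in the cytosol and must cross the mitochondrial membranes to reach their place. The TOM complex of the outer membrane is the general entry gate. Behind it, SAM inserts barrel-shaped outer membrane proteins, small TIM chaperones carry hydrophobic proteins across the intermembrane space, TIM22 inserts metabolite carriers into the inner membrane, and TIM23 with its ATP-driven motor pulls presequence-bearing proteins into the matrix, where peptidases trim them. Beta cells couple glucose metabolism in mitochondria to insulin secretion, and the respiratory chain that does this is built largely from imported subunits.

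Libraries held between 29249270 and 35003307 counts, and 3 counts correspond to 0.0857 to 0.103 CPM (counts-per-million, the count scaled to library size). Cd63, which encodes the sorting marker, stood at 1973 and 2076 CPM in CD63 high and 1186 and 1120 CPM in CD63 low libraries. The libraries labelled beta cells held the 9 beta cell markers at a summed 551200 and 587000 CPM in CD63 high and 621700 and 537200 CPM in CD63 low. Ins1 and Ins2 made up most of each sum, with log2 fold changes (CD63 high over CD63 low) of 0.06 and -0.06. Over the 9 markers the median log2 fold change was -0.55, 2 fell and none rose. Markers of other cells moved with the group: the summed alpha cell list stood at 5468 and 5700 against 376 and 503 CPM, the acinar list at 610 and 876 against 14.1 and 231 CPM, and the macrophage list at 92.4 and 337 against 16.4 and 31.8 CPM. Delta, gamma and duct markers were higher in both CD63 high libraries as well. Of these 6 lists, 1 of 5 alpha, 3 of 3 delta, 2 of 2 gamma, 2 of 6 acinar, 1 of 3 duct and 6 of 7 macrophage markers tested rose and none fell. Sox9, a duct marker, was at 0 in both CD63 low libraries. Endothelial, stromal and lymphocyte lists summed to at most 4.61 CPM in any library. The part of other cells in the import values was not tested. In bulk libraries fewer cells of a type and less RNA per cell cannot be told apart.

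No import gene passed the test between CD63 high and CD63 low cells, in a comparison where 369 of 13241 tested genes (2.79%) did, 331 of them higher (2.50%) and 38 lower (0.287%). Of the 40 genes, 38 had enough counts to be tested and 2, Timm8a2 and Tomm20l, had no count in any library. The quasi-likelihood test of edgeR, with p-values adjusted over all tested genes by the Benjamini-Hochberg method, called 0 of the 38, with adjusted p from 0.213 to 0.998, and DESeq2 and limma-voom also called 0 (5.18% and 2.14% of all genes). At an unadjusted p under 0.05 stood 2 of 38 (5.26%), Tomm34 and Timm50, against 14.9% of all tested genes. DESeq2 gave the same number and limma-voom 1. Without CD63 low replicate 1 there were 7, with neither Tomm34 nor Timm50 among them (Timm17a, Tomm5, Tomm7, Dnajc15, Timm8b, Timm22 and Immp2l), where 18.8% of all tested genes passed the same limit. With a crossed pairing of the replicates, chosen after the data were seen, there were 7 as well, against 22.0% of all tested genes. Without each other library there was 1.

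The intervals were narrow enough to bound most members. All 38 fitted differences were under 2-fold, as were those of 87.8% of all tested genes. For 33 of the 38 genes the 95% interval of the difference lay within 2-fold in both directions, and for 5 it also lay within 1.5-fold. The intervals that reached 2-fold belonged to Tomm34 (downward), Dnajc15, Immp2l and Timm8a1 (upward) and Tomm6 (both ways). Missing the threshold does not show that the groups were alike, and for the remaining 33 genes a difference of 1.5-fold lay inside the interval.

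Small differences above 0 were more common than those below it. The log2 fold change, CD63 high over CD63 low, was above 0 for 30 of 38 genes (78.9%, against 48.6% of all tested genes), with a median of 0.16 against -0.01 over all tested genes. Among the 6567 tested genes at 7.41 to 70.8 CPM, the level of most members, 42.3% were above 0 and 1.75% were called. CPM values did not overlap between the groups for 17 genes that were higher in CD63 high (44.7%, against 23.8% of all tested genes) and for 3 that were lower (7.89%, against 22.2%), and overlapped for 18. In either direction, 46.0% of all tested genes did not overlap. The median moved to 0.36 without CD63 low replicate 1 and was 0.12 to 0.27 without each other library. Over all genes the count of calls was 769 without CD63 low replicate 1. Summed over the 40 genes, the TMM-scaled level was 1492 and 1609 CPM in CD63 high and 1478 and 1340 CPM in CD63 low replicates 1 and 2. CD63 low replicate 1 thus lay close to CD63 high replicate 1, and CD63 low replicate 2 was the lowest of the 4. The insulin genes Ins1 and Ins2 held 49.0% and 52.2% of all CD63 high counts, against 56.4% and 48.7% for CD63 low. Of the remaining counts the import genes made up 3013 and 3191 CPM for CD63 high against 3120 and 2909 CPM for CD63 low, and on this scale the groups overlapped.

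**Figure D1:**
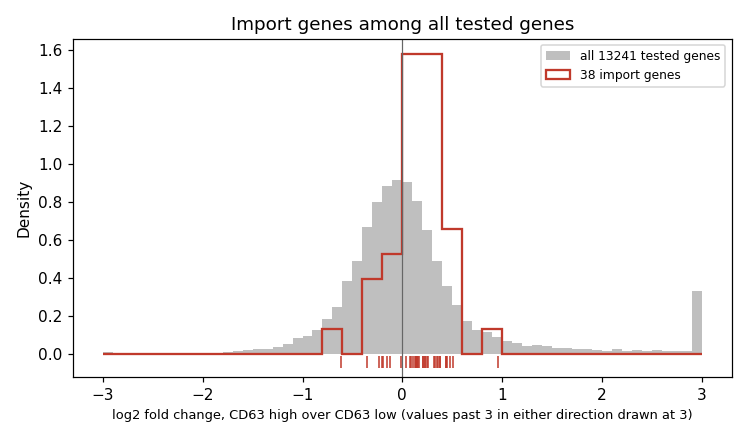
Distribution of log2 fold changes (horizontal axis, CD63 high over CD63 low) as densities (vertical axis) for all 13241 tested genes in grey and the 38 tested import genes in red, with a tick for each import gene; values past 3 are drawn at 3. The import genes sit between -0.61 and 0.96, most of them just above 0.

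**Figure D2:**
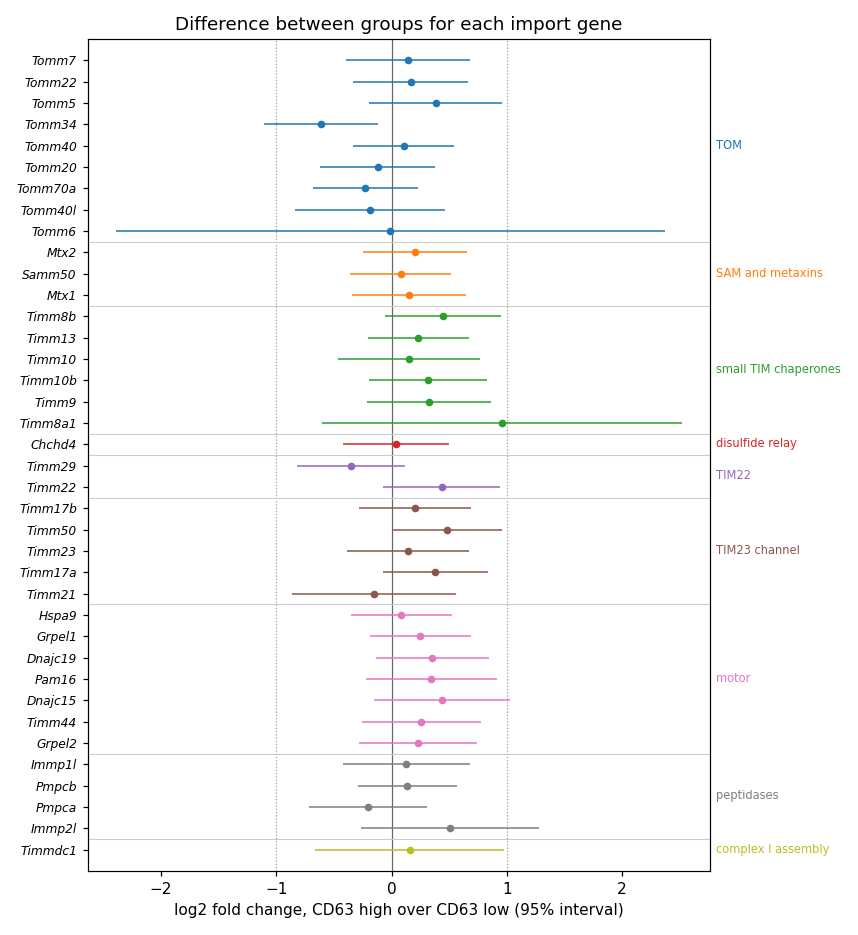
Fitted log2 fold change of each tested import gene (point, horizontal axis) with its 95% interval (bar), grouped and coloured by role; dotted lines mark a 2-fold difference. Only the bars of Tomm34 and Timm50 leave out 0, before any adjustment for the number of genes tested.

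Transcripts of the TOM complex spread over a wide range of levels, and their fold changes lay on both sides of 0. Of 10 genes 9 were tested, 4 with a log2 fold change above 0 and 5 below, with a median of -0.01. Per length, Tomm7, a small subunit that shapes the assembly of the complex, was the most abundant of them. It stood at 59.4 and 67.2 CPM per kb in CD63 high and 71.0 and 43.8 CPM per kb in CD63 low libraries, and both extremes lay in CD63 low. The difference in Tomm7 was a log2 fold change of 0.14 (SE 0.24, edgeR adjusted p 0.864). Next in level came the receptor Tomm22 and the small subunit Tomm5, at a mean of 28.03 and 26.8 CPM per kb over the 4 libraries. These neighbours did not differ beyond their spread (SD 4.38 and 6.16, n = 4). Tomm34, described below, followed at 13.7 CPM per kb. Tomm40, the channel itself, and the receptors Tomm20 and Tomm70a came after it at 11.5, 8.10 and 4.52 CPM per kb.

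Tomm34 had the lowest fitted log2 fold change of all members. It lies on chromosome 2 (164053540 to 164071169, mm10) and encodes a cytosolic partner of the heat shock proteins that bring precursors to mitochondria, so that it shares the name but not the membrane of the TOM complex. Tomm34 stood at 27.8 and 38.3 CPM in CD63 high and 53.0 and 47.9 CPM in CD63 low libraries. Both CD63 high libraries lay below both CD63 low libraries. This was 1.53-fold less in CD63 high (log2 fold change -0.61, SE 0.22, 95% interval -1.11 to -0.12), with an unadjusted p of 0.0202 and an edgeR adjusted p of 0.213. In the 13 alternative analyses it stayed below 0, at -0.86 to -0.40, with adjusted p from 0.0428 to 0.748. It passed the threshold in 1 of them, the crossed pairing, under which 7.11% of all tested genes passed.

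Tomm70a, the receptor for carrier precursors and chaperones, was also lower in both CD63 high libraries, at 41.2 and 40.2 against 42.7 and 52.6 CPM (log2 fold change -0.23, SE 0.21, edgeR adjusted p 0.687). The gap between the nearest libraries of the groups was small beside that within CD63 low, and the value was -0.05 without CD63 low replicate 2 and -0.37 without CD63 low replicate 1. Most of the exonic sequence of Tomm6 and Tomm40l is shared with other gene names. Other gene names overlapped 84.2% of the exonic bases of Tomm6 (Gm21981, Tomm6os and Usp49) and 64.3% of those of Tomm40l (Nr1i3), and featureCounts, unless an option is set, assigns fragments in such overlaps to no gene. Tomm6 had 44 counts over the 4 libraries, too few to bound its difference, with an interval of -2.39 to 2.37.

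The SAM complex, which folds barrel proteins such as the channel Tomm40 into the outer membrane, had 3 genes of like level. Mtx2, the metaxin with the highest level per length, stood at 11.1 and 12.4 CPM per kb in CD63 high and 10.5 and 9.89 CPM per kb in CD63 low. Its CD63 high libraries lay above the others, by a log2 fold change of 0.20 (SE 0.20, 95% interval -0.24 to 0.65, edgeR adjusted p 0.720). Samm50, the barrel subunit, and its partner Mtx1 had values that overlapped between groups, with log2 fold changes of 0.08 and 0.15.

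Small TIM chaperones, which shield membrane proteins on their way across the intermembrane space, all had fitted differences above 0, and none passed the test. Of 7 genes 6 were tested, with log2 fold changes of 0.15 to 0.96 and a median of 0.32. For 5 of the 6, all but Timm10, the groups did not overlap and CD63 high was higher, as in 23.8% of all tested genes. Timm8b, on chromosome 9 (50603910 to 50605320, mm10), had the highest level per length of all import genes. It stood at 60.6 and 69.7 CPM in CD63 high and 56.7 and 39.1 CPM in CD63 low libraries, so that CD63 low replicate 1 was nearer to CD63 high than to its own replicate. This gave a log2 fold change of 0.44 (SE 0.23, 95% interval -0.06 to 0.95) and an edgeR adjusted p of 0.407. It was 0.73 without CD63 low replicate 1 and 0.22 without CD63 low replicate 2. Its partner Timm13 came next among the small TIMs at 57.7 ± 7.09 CPM per kb (SD over the 4 libraries). Timm10 and Timm9, which form the chaperone for carrier proteins, stood at 15.4 and 3.65 CPM per kb. Their order turned without the division by exonic length (815 and 4282 bases), at a mean of 12.6 and 15.6 CPM.

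Timm8a1, the counterpart of the human deafness-dystonia gene TIMM8A, had the highest fitted fold change and few counts. Its 144 counts over the 4 libraries gave 1.34 and 1.77 CPM in CD63 high and 1.12 and 0.488 CPM in CD63 low (log2 fold change 0.96, SE 0.71, 95% interval -0.60 to 2.52, edgeR adjusted p 0.601). The groups did not overlap, and CD63 low replicate 1 lay nearer to CD63 high replicate 1 than to its own replicate. The value was 1.66 without CD63 low replicate 1 and 0.49 without CD63 low replicate 2. Copies at 98% identity or more cover 43.1% of its longest transcript, and its close paralogue Timm8a2 had no count.

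Chchd4, the oxidoreductase that traps small TIM proteins in the intermembrane space by forming their disulfide bonds, was the steadiest member. It stood at 31.0 and 32.3 CPM in CD63 high and 31.7 and 30.0 CPM in CD63 low libraries, and the groups overlapped. The log2 fold change was 0.04 (SE 0.21, edgeR adjusted p 0.964) with an interval of -0.42 to 0.50.

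The TIM22 complex showed its 2 genes on opposite sides of 0. Timm22, the channel that inserts carriers, stood at 26.8 and 30.6 CPM in CD63 high and 23.5 and 18.9 CPM in CD63 low (log2 fold change 0.44, SE 0.23, edgeR adjusted p 0.423). Timm29, a subunit described in human cells that joins the complex to TOM, stood at 61.5 and 46.2 CPM in CD63 high and 66.0 and 71.3 CPM in CD63 low (log2 fold change -0.35, SE 0.21, edgeR adjusted p 0.498). Neither gene overlapped between the groups. Leaving out a CD63 high library put Timm29 at -0.57 (replicate 1 out) or -0.16 (replicate 2 out). The difference between these 2 fold changes was not tested.

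In the TIM23 channel 4 of 5 genes had log2 fold changes above 0, with a median of 0.20. Timm50, on chromosome 7 (28305516 to 28312072, mm10), is the receptor that takes presequences over from TOM. It stood at 35.8 and 44.8 CPM in CD63 high and 27.9 and 29.7 CPM in CD63 low libraries. Both CD63 high libraries were above both CD63 low libraries, and CD63 low varied little. This was 1.40-fold more in CD63 high (log2 fold change 0.48, SE 0.22, 95% interval 0.01 to 0.96), with an unadjusted p of 0.0478 and an edgeR adjusted p of 0.329. It stayed above 0 in all 13 alternatives, at 0.31 to 0.64, and passed in none (adjusted p 0.142 to 0.881).

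The channel-forming pair Timm17a and Timm17b and the channel protein Timm23 had log2 fold changes of 0.38 (SE 0.21), 0.20 and 0.14 (SE 0.24), and the groups did not overlap for Timm17a. Timm17b led the complex per length, at 19.7 and 24.9 CPM per kb in CD63 high and 21.8 and 17.0 CPM per kb in CD63 low, with overlap (log2 fold change 0.20, SE 0.22, edgeR adjusted p 0.749). This value was 0.024 without CD63 high replicate 2 and 0.049 without CD63 low replicate 2. Leaving out replicate 1 it was 0.39 for CD63 low and 0.36 for CD63 high. Values of Timm23 may be too low, since copies of at least 98% identity, most of them processed pseudogenes, cover 95.6% of its longest transcript and fragments that fit several places were not counted. Timm21, which links TIM23 to the respiratory chain, had 988 counts in all and a log2 fold change of -0.15.

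All 7 genes of the import motor had log2 fold changes above 0 (0.08 to 0.44, median 0.26), and none passed the test. For 5 of them the groups did not overlap, where 23.8% of all tested genes were higher in CD63 high without overlap. Hspa9, on chromosome 18 (34937414 to 34954357, mm10), encodes mortalin, the matrix heat shock protein that drives import, and had the highest level per length of the motor. It stood at 197 and 167 CPM in CD63 high and 158 and 185 CPM in CD63 low, and the groups overlapped (log2 fold change 0.08, SE 0.20, 95% interval -0.35 to 0.52, edgeR adjusted p 0.904). The sign of this value turned without CD63 high replicate 1 (-0.040) and without CD63 low replicate 1 (-0.027). Grpel1, its nucleotide exchange factor, followed at 24.5 CPM per kb against 44.9 for Hspa9.

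Dnajc15, a J protein of the inner membrane that stimulates the motor, had the smallest p of the group. Its 31.1 and 47.5 CPM in CD63 high and 33.9 and 24.05 CPM in CD63 low overlapped, and CD63 high replicate 2 stood apart from the others (log2 fold change 0.44, SE 0.27, 95% interval -0.15 to 1.03, edgeR adjusted p 0.498). Without that library it was 0.10. The related J protein Dnajc19 was at 0.35 (SE 0.22). For Pam16, the J-like partner that restrains these proteins, copies of at least 98% identity cover 89.6% of the longest transcript, so that its 2199 counts may be too few.

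Peptidases that trim imported proteins went both ways. Immp1l, a subunit of the inner membrane peptidase, had the highest level per length, at 43.1 and 65.0 CPM per kb in CD63 high and 56.9 and 42.1 CPM per kb in CD63 low. The groups overlapped (log2 fold change 0.13, SE 0.25, edgeR adjusted p 0.885), and copies cover 52.3% of its longest transcript. Immp2l, the other catalytic subunit, stood at 6.89 and 8.48 CPM in CD63 high and 6.69 and 4.16 CPM in CD63 low, from 816 counts (log2 fold change 0.51, SE 0.35, 95% interval -0.27 to 1.28, edgeR adjusted p 0.570). CD63 low replicate 1 almost touched CD63 high replicate 1, and the value was 0.88 without it and 0.22 without CD63 low replicate 2.

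The 2 subunits of the matrix processing peptidase, which cleaves presequences, had like levels. Pmpca, the substrate-binding subunit, stood at 34.2 and 29.9 CPM in CD63 high and 30.9 and 42.9 CPM in CD63 low (log2 fold change -0.21, SE 0.23, edgeR adjusted p 0.761). Only CD63 low replicate 2 stood apart, and without it the value was 0.066. Pmpcb, the catalytic subunit, was at 0.14 (SE 0.19). Timmdc1, a relative of the TIM17 family known for assembling respiratory complex I, was at 0.16 (SE 0.37) from 517 counts.

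**Figure D3:**
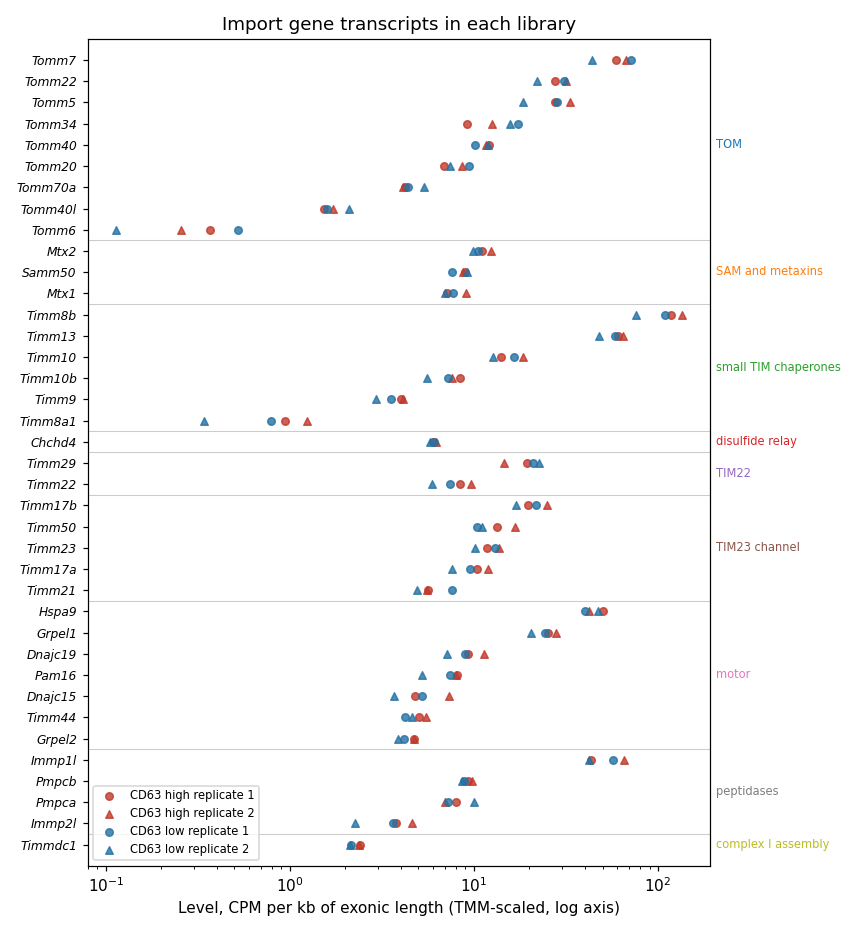
Level of each tested import gene in each library, in TMM-scaled CPM per kb of exonic length (horizontal log axis); red marks are CD63 high, blue CD63 low, circles replicate 1 and triangles replicate 2. Levels ran from 0.83 CPM per kb for Timm8a1 to 109 for Timm8b, with Tomm6 below at 0.32, and the spread between genes was far larger than that between groups.

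Pairs of related genes were compared within each library, where scaling between libraries has no effect. Over the 8 pairs, the difference in the share of 1 partner in their summed CPM per kb, CD63 high less CD63 low, ran from -5.60 percentage points for Pmpca with Pmpcb to 2.71 for Timm17a with Timm17b. Timm17a took 34.4% and 32.4% of its pair with Timm17b in CD63 high, against 30.4% and 31.0% in CD63 low. This order rests on exonic length (7893 against 2557 bases). In CPM Timm17a was the higher partner in every library, as at 81.7 against 50.3 CPM in CD63 high replicate 1. Tomm40 took 88.7% and 87.2% of its pair with Tomm40l in CD63 high, against 86.4% and 85.0% in CD63 low. The shares of Timm17a and Tomm40 were higher in both CD63 high libraries. Immp1l took 92.0% and 93.4% of its pair with Immp2l against 94.0% and 94.9%, lower in both CD63 high libraries. In the pair of Timm8a1 with Timm8b, Timm8a1 took 0.7998% and 0.917% against 0.715% and 0.452%. These 4 of the 8 pairs were separated between groups. For single genes in CPM, 46.0% of all tested genes did not overlap in either direction. No such background was computed for shares of pairs. Each of the 4 pairs had an exact two-sided permutation p of 0.333, the smallest that 2 against 2 libraries can give (0.667 after Benjamini-Hochberg adjustment over the 8 pairs). The shares of Dnajc15, Grpel1, Mtx1 and Pmpca in their pairs overlapped between groups, each with an exact p of 0.667. Counts of some partners may be too low, which shifts their shares. Nr1i3 overlaps 64.3% of the exonic bases of Tomm40l. Copies of at least 98% identity cover 52.3% of the longest transcript of Immp1l and 43.1% of that of Timm8a1.

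**Figure D4:**
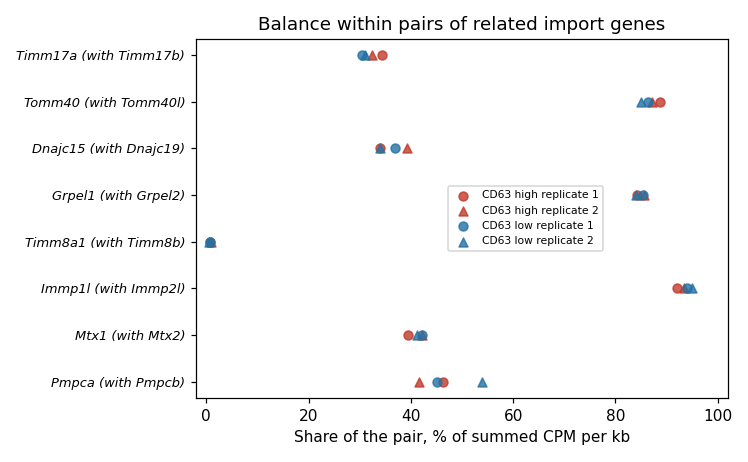
Share of the first-named gene in the summed CPM per kb of a pair of related import genes (horizontal axis, %), for each of the 4 libraries. Per length, each pair keeps its own balance, from under 1% for Timm8a1 to over 90% for Immp1l. The 4 libraries lie close together within it, most widely for Pmpca at 41.6% to 53.8%. The levels of the shares depend on exonic length and on sequence shared with other genes or copies.

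The spread within a group was as large as the difference between groups for many members. Between the CD63 low replicates it moved with exonic length. Leaving out Tomm6, 28 of 37 genes were higher in CD63 low replicate 1 than in replicate 2 (75.7%, against 49.3% of all tested genes), with a median log2 ratio of 0.29. CD63 low replicate 2 was the lowest of the 4 libraries for 26 of 37 (70.3%, against 28.6% of all tested genes), and CD63 high replicate 2 the highest for 22 (59.5%, against 25.5%). Over the 37 genes, which share these libraries and are not independent, Spearman's rho between exonic length and the log2 ratio of the CD63 low replicates was -0.64, against -0.20 over all tested genes. Members under 2000 bases (12 genes) had a median ratio of 0.51 and the 25 longer ones 0.10. Between the groups, the median log2 fold change was 0.16 for the shorter and 0.20 for the longer members, and Spearman's rho of length with it was -0.27 over the 37 genes and -0.24 over all tested genes. The 13 genes encoded in the mitochondrial genome held 0.323% and 0.338% of the CD63 high counts. Their share was 0.417% in CD63 low replicate 1 and 0.245% in CD63 low replicate 2, so that both extremes of this share lay in CD63 low. The part of transcript length in the fold changes was not tested.

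**Figure D5:**
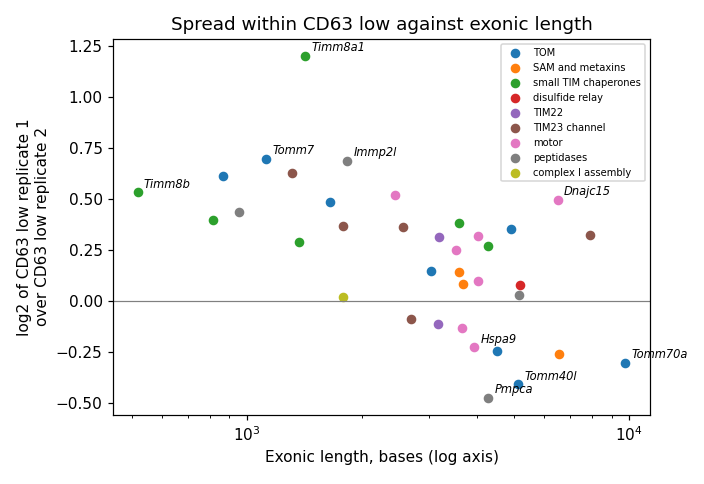
Log2 ratio of CD63 low replicate 1 over CD63 low replicate 2 (vertical axis) against exonic length in bases (horizontal log axis) for 37 tested import genes, coloured by role. All 12 genes under 2000 bases sit above 0, as Tomm7 at 0.70. The 25 longer ones lie on both sides of it, 16 above, from Pam16 at 0.52 to Pmpca at -0.47.

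Promoters of the import genes were searched for short motifs of factors known from housekeeping and mitochondrial genes. RefSeq promoters (GRCm38.p6, 250 bases before to 50 after a start) were at hand for 35 of the 40 genes, and Hspa9, Timm21, Grpel2, Tomm7 and Tomm40l had no entry. The ETS motif CCGGAAG, on either strand, was in 15 of the 35 (42.9%), against 19.8% of the promoters of tested genes and 9.93% of all promoters. The 14 tested genes with the motif had a median log2 fold change of 0.15 and the 19 without it 0.33. No gene of either set was called. The NRF1 motif, GCGC on both sides of any pair of bases, which reads the same on both strands, was in 4 (11.4%, against 14.8% of tested genes). The YY1 motif AAGATGGC was in 3 (8.57%, against 5.27%), the GC box GGGCGG in 21 (60.0%, against 67.8%), the CCAAT box in 12 (34.3%, against 42.6%), the ERR motif AAGGTCA in 3 (8.57%, against 3.92%) and the CRE TGACGTCA in 0 of 35 (against 3.81%). A match is a description of the letters and shows no binding.

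Stretches of 100 bases upstream of the RefSeq start are printed for the ETS motif, whose share stood furthest above that of tested genes, in members described above that lay on both sides of 0, with the motif on either strand in capitals. They run 5′ to 3′ on the strand of the gene, at chr2:164071170-164071269 (minus strand) for Tomm34, chr9:21592502-21592601 (plus) for Timm29, chr9:50603801-50603900 (plus) for Timm8b, chr2:74825712-74825811 (plus) for Mtx2 and chr15:79670768-79670867 (plus) for Tomm22.
Tomm34: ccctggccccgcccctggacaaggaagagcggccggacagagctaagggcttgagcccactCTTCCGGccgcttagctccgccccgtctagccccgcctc
Timm29: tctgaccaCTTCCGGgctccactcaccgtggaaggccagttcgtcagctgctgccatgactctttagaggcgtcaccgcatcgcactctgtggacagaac
Timm8b: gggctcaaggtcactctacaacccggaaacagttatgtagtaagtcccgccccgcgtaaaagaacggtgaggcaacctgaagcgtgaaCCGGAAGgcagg
Mtx2: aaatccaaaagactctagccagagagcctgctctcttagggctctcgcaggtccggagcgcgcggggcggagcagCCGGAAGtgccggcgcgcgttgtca
Tomm22: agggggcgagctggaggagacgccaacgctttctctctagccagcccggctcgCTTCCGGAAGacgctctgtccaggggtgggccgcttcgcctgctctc
In Tomm22 the motif lies on both strands at once, overlapping itself. In Timm8b and Mtx2 it begins 12 and 25 bases before the start, and in Timm29 212 bases before it. RefSeq gives Tomm34 more than 1 start, and the motif begins 39 bases before the start used for the printed stretch and 106 bases before the other.

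Import genes also had close neighbours. Of the 38 tested, 14 (36.8%, against 22.8% of all tested genes) had a gene on the other strand whose start lay within 1000 bases of their own. Timm8b shares such a region with Sdhd, a subunit of respiratory complex II, and Timm29 with Yipf2, a Golgi protein. Sdhd and Yipf2 had log2 fold changes of 0.08 (SE 0.22) and 0.01 (SE 0.19), against 0.44 and -0.35 for their neighbours, and none of these values passed the test.

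The genes around the import machinery were read from 8 lists, of which 79 of 81 names matched the tables and all 79 were tested. None was called in either direction, where 2.79% of all tested genes were, and the median log2 fold change was 0.13 over the 79. Among 15 disulfide relay partners and substrates, such as the complex IV subunit Cox6b1, 12 were above 0 (median 0.20). Chchd10, a cristae protein of that list, stood at 111 and 105 CPM in CD63 high and 83.4 and 74.5 CPM in CD63 low, without overlap (log2 fold change 0.45, SE 0.19, edgeR adjusted p 0.301). The 6 matrix chaperones had a median of -0.21, with the lowest value in Trap1 at -0.39 (SE 0.24), which was -0.69 or -0.15 when CD63 high replicate 1 or 2 was left out. Medians were 0.22 for 11 genes of inner membrane insertion and cristae, 0.06 for 13 proteases, 0.20 for 8 outer membrane channels and insertases and -0.06 for 10 cytosolic chaperones.

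Genes that respond to failing import had the highest median of these lists. All 9 tested, from the list of import stress and the integrated stress response, had log2 fold changes above 0 (0.14 to 1.59, median 0.64), and none passed the test. Psat1, an enzyme of serine synthesis, stood at 52.5 and 62.3 CPM in CD63 high and 34.6 and 32.6 CPM in CD63 low (log2 fold change 0.77, SE 0.20, edgeR adjusted p 0.0768). Both CD63 high libraries were well above the others, and the gene passed in 3 of 13 alternatives (no filter, DESeq2 and the crossed pairing), with adjusted p from 0.0126 to 0.426. Gdf15, a secreted stress cytokine, stood at 3.54 and 5.56 CPM against 1.75 and 1.28 CPM (log2 fold change 1.59, SE 0.47, edgeR adjusted p 0.115) and passed in 3 of 13 (no filter, the crossed pairing and without CD63 high replicate 1), with adjusted p from 0.0253 to 0.486. These responses have triggers other than import, and macrophage, acinar and alpha cell transcripts were higher in the same libraries. The part of either in these values was not tested. Of the settings in which Psat1 or Gdf15 passed, DESeq2 called 5.18% of all tested genes and the crossed pairing 7.11%. With no filter 940 genes were called, against 369 in the main fit.

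Of 7 genes that tie import to mitophagy, none was called and the median was -0.20. Pink1, the kinase that is imported and degraded in healthy mitochondria and held at TOM in damaged ones, stood at 43.6 and 46.1 CPM in CD63 high and 65.6 and 63.7 CPM in CD63 low. The groups lay well apart and their replicates close together (log2 fold change -0.53, SE 0.19, 95% interval -0.95 to -0.10), and the edgeR adjusted p was 0.210. It was below 0 in all 13 alternatives, at -0.57 to -0.49, and passed in none (adjusted p 0.059 to 0.639).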

How the data were processed

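Each library has 1 deposited table of raw fragment counts. Per the file headers, fragments were counted per gene name with featureCounts 1.6.2 with the mm10 3.0.0 annotation distributed for Cell Ranger, paired-end, with no strand option and no option for fragments with several alignments. Per the submitters' processing notes, STAR 2.6.0c, FastQC and Cell Ranger were also used. Per the labels' protocols, low-input SMARTer cDNA went into Nextera XT libraries, and no molecular identifiers are named, so PCR copies can count as separate fragments. Per-length levels use the exonic length of the tables, the union of all annotated exons, which understates genes with long alternative exons.

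Genes kept by filterByExpr (minimum count 10, minimum total 15) were tested with edgeR 4.0.16 in R 4.3.3 (TMM, quasi-likelihood, no covariate) over all 13241 kept genes, and were called at an adjusted p under 0.05. SE was taken as |log2 fold change| / sqrt(F), and 95% intervals use it with the test's degrees of freedom. The fit was tested on simulated data. CPM values are TMM-scaled, marker sums scaled by total counts. The members and lists were chosen with earlier results of these data known, and the promoter motifs and the length comparison after values were seen. Named genes are the 4 highest and 4 lowest fold changes and, for each role, the highest level per length and the smallest p; Chchd4 is alone in its role. Of other lists, at most 2 genes of smallest p are named, and other members were named after their values were seen. Copies came from BLAST of GENCODE M21 transcripts (hits of at least 100 bases). Alternatives used DESeq2 1.42.0, limma 3.58.1, other scalings, filters and libraries.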

Additional observations from a re-analysis of the deposited data

How the results depend on the processing

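The count of called import genes was 0 in 12 of 13 alternatives, all but the crossed pairing. Over all genes, the count of 369 became 67 with library size as the only scaling, 940 with no filter, 686 with DESeq2 and 450 to 769 without each library in turn. The replicate numbers of the labels are not shown to pair the libraries: same-numbered libraries deviated from their group means with a correlation of -0.178, and with the replicate block the test called 616 genes and 0 import genes. With the crossed pairing, chosen after seeing that correlation, it called 942 genes and 1 import gene, Tomm34. The deposited tables carry numbers of their own, CD63 high being 1 and 2 and CD63 low 2 and 3. The crossed pairing joins the tables numbered 2, and it also joins number 1 with number 3. Which pairing, if any, reflects the experiment is not in the labels. The median log2 fold change of the import genes was 0.12 to 0.36 without each library, and the number above 0 was 27 to 30 there. Values near 0 changed sign: Chchd4 was at -0.00065 with library size only, and without 1 library each Hspa9 ranged from -0.040 to 0.22, Immp1l from -0.20 to 0.40, Pmpca from -0.43 to 0.066, Tomm7 from -0.15 to 0.53 and the cytosolic chaperone Stip1 from -0.41 to 0.022. From raw counts with no length correction the pair difference of Timm8a1 with Timm8b was 0.735 percentage points (main 0.275) and that of Immp1l with Immp2l -3.01 (main -1.76), since length weights the partners. Without each library the pair differences ranged from -9.95 for Pmpca to 3.82 for Dnajc15. Depth limits Timm8a1, Tomm6, Timmdc1, Immp2l and Timm21, each under 1000 counts over the 4 libraries.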
